A study of Mus musculus with 10 samples.

Results

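The genes described here are 10 members of the AP-1 group of transcription factors, chosen by name. They are Fos, Fosb, Fosl1 and Fosl2 of the Fos family, Jun, Junb and Jund of the Jun family, Batf and Batf3 of the Batf family, and Atf3. All 10 were found among the 46316 genes of the count table. Of these, 9 had enough counts to be tested, as did 17718 genes in all, and Fosl1 did not.

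RNA was sequenced from B cells sorted out of the spleens of 10 C57BL/6 mice in 3 groups, of ages not given in the sources used here. The pBIC group (n = 3) models ABC-DLBCL, a form of diffuse large B cell lymphoma whose cells look like activated B cells. Its genotype is p53F/F, Blimp1F/F, IKK2castopF/stopF and Cg1Cre/+. Its Cre is made from the Cγ1 locus, which is transcribed in germinal centre B cells, and there it removes p53 and Blimp1 and switches on a constitutively active IKK2, a kinase of the NF-κB pathway. The pBIC10 group (n = 3) carries all of these alleles and IL-10F/F, so that these lymphomas also lack the gene for the cytokine IL-10. Both were sorted as B220+GFP+ cells from moribund mice. The YC group (n = 4) has the genotype YFPstopF/+ with the same Cg1Cre/+ and no lymphoma allele. Its cells were B220+YFP+ germinal centre B cells taken 10 days after a second injection of sheep red blood cells, with the first given 20 days before. Their labels repeat the lymphoma wording in some fields, and here they are described by the series design. The comparisons ask how lymphoma cells with and without IL-10 differ from each other and from normal germinal centre cells.

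Libraries held 12.6 to 19.1 M counts, and 3 counts in a library, the level that a count of 0 allows, came to 0.154 to 0.246 CPM (counts per M, scaled by TMM, a correction for library composition). The 6 B cell markers summed to 6997 to 9172 CPM in YC, 1562 to 2852 CPM in pBIC and 2141 to 3642 CPM in pBIC10. Of them 6 were lower in pBIC than in YC (27.7% of all genes were) and 5 in pBIC10 (26.9% of all genes). In pBIC10 against pBIC, 3 were higher (15.6% of all genes were). Several AP-1 genes share these directions. The part of this in the AP-1 results was not tested. The 6 germinal centre markers summed to 536 to 1020 CPM in YC, 61.9 to 79.6 CPM in pBIC and 27.2 to 56.3 CPM in pBIC10. Il10 stood at 1.99 to 4.77 CPM in pBIC10 and 6.84 to 19.4 CPM in pBIC, and Trp53 at 18.3 to 53.3 CPM in both lymphoma groups against 176 to 198 CPM in YC. Of the counts on heavy chain variable segments, Ighv7-3 took 67.4 to 70.5% in each pBIC10 library and Ighv8-11 took 51.6 to 59.1% in each pBIC library. Libraries of a lymphoma group thus share a segment, and p-values measure the spread among such libraries. Clone and genotype cannot be told apart in such a design. The same holds for series and genotype, as only the pBIC10 libraries were made for this series and those of pBIC and YC came from an earlier one. In these bulk samples, fewer cells with a message and less message per cell cannot be told apart.

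AP-1 factors bind DNA as dimers held together by a leucine zipper. Fos proteins do not pair with themselves and bind DNA with a Jun partner, whereas Jun proteins can also pair with each other. Fos, Fosb, Jun, Junb and Atf3 are immediate early genes, switched on within minutes by mitogens, antigen receptors or stress through MAP kinases. Batf and Batf3 pair with Jun proteins but lack a transactivation domain. In lymphocytes BATF and Jun proteins bind DNA together with IRF4 or IRF8, and B cells without BATF fail to switch antibody class. Fold changes below are log2 values ± SE from edgeR's quasi-likelihood test, and "called" means a Benjamini-Hochberg adjusted p, over all genes tested, under 0.05. The members and gene lists below were chosen with earlier results of these data known. Called shares set beside those of all genes are therefore descriptions only.

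Between the lymphomas, Fosl2, Fos and Junb were higher in pBIC10 than in pBIC, and Batf was lower. These were 4 of 9 tested members (3 higher, 1 lower), where 30.7% of all genes were called (15.6% higher and 15.1% lower). Against normal cells, pBIC had 6 of 9 members lower (Fos, Fosb, Fosl2, Jun, Junb and Jund), where 27.7% of all genes were, and 1 higher (Batf), where 26.4% were. The called share of all genes there was 54.1%. The pBIC10 cells had 4 of 9 lower (Jun, Junb, Jund and Batf) against a background of 26.9%, and 1 higher (Fosl2) against 24.8%. In all, 5 of 9 members were called there, close to the background of 51.7%. Members had a median log2 fold change of 1.22 between the lymphomas, where all tested genes had -0.0071. The medians were -2.52 (all genes 0.020) for pBIC and -1.07 (all genes 0.0099) for pBIC10 when each was set against YC. Both comparisons with YC share its 4 libraries.

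**Figure D1:**
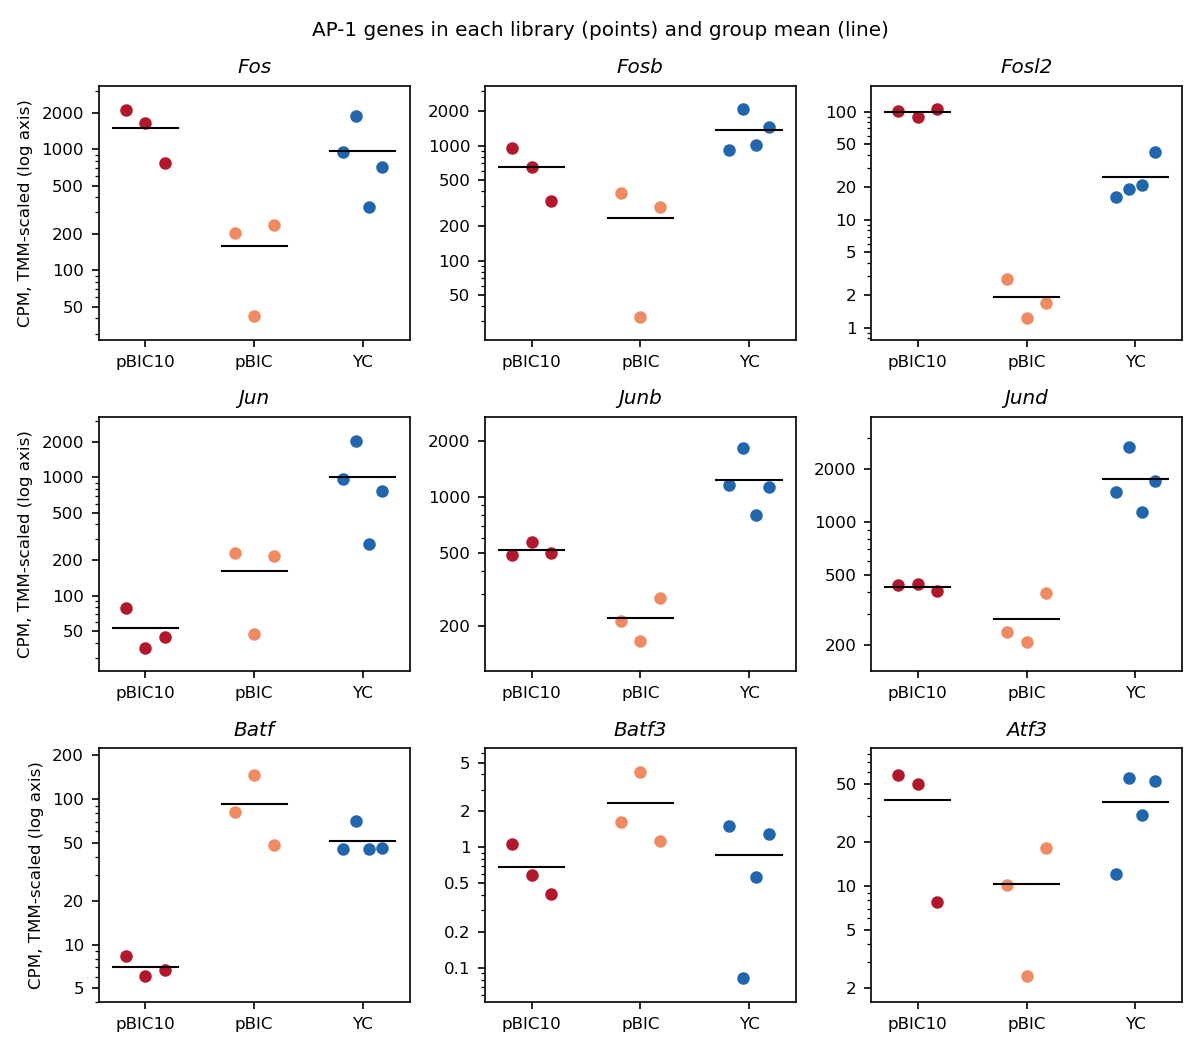
Levels of the 9 tested AP-1 genes in CPM on a log axis. Each point is 1 library of pBIC10 (n = 3), pBIC (n = 3) or YC (n = 4), and the line is the group mean. Fosl2 and Batf separate the lymphomas most widely, with Fosl2 at 88.6 to 107 CPM in pBIC10 and 1.24 to 2.84 CPM in pBIC, and Batf at 6.09 to 8.38 CPM and 48.6 to 148 CPM.

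Fos, the founding member of its family, stood at 2101, 1636 and 772 CPM in the pBIC10 libraries, against 202, 41.7 and 236 CPM in pBIC and 945, 1884, 331 and 706 CPM in YC. Every pBIC10 library lay above every pBIC library, while pBIC10 and YC overlapped. Fos was higher in pBIC10 than in pBIC (3.23 ± 0.71, adjusted p = 0.00526) and lower in pBIC than in YC (-2.59 ± 0.67, adjusted p = 0.00671). In pBIC10 against YC it was not called (0.64 ± 0.61, adjusted p = 0.402). The call in pBIC against YC was lost with no filter on low counts (adjusted p = 0.0556, range over alternatives 3.57e-04 to 0.0556).

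Fosb, the relative of Fos with which it is often induced, stood at 958, 656 and 330.5 CPM in pBIC10, against 384, 32.4 and 294 CPM in pBIC and 922, 2056, 1018 and 1447 CPM in YC. It was lowest in pBIC and highest in YC on average, and the pBIC10 libraries overlapped those of both other groups. Only pBIC against YC was called (-2.52 ± 0.68, adjusted p = 0.00827), and not without the filter (adjusted p = 0.0643, range 0.00169 to 0.0643). Its differences were 1.45 ± 0.67 in pBIC10 against pBIC (adjusted p = 0.125) and -1.07 ± 0.64 in pBIC10 against YC (adjusted p = 0.180). The latter was called in the fit of these 2 groups alone (adjusted p = 0.0495) and without pBIC replicate 2 (adjusted p = 0.0392, range 0.0392 to 0.480).

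Fosl2, which encodes the more slowly induced Fos relative FRA-2, stood at 101, 88.6 and 107 CPM in pBIC10, against 2.84, 1.24 and 1.71 CPM in pBIC and 16.4, 19.2, 21.0 and 42.0 CPM in YC. No group overlapped another, and the order was pBIC10, YC, pBIC. Fosl2 was 50.8-fold higher in pBIC10 than in pBIC (5.67 ± 0.42, adjusted p = 2.21e-06), higher in pBIC10 than in YC (2.0 ± 0.31, adjusted p = 2.04e-04) and lower in pBIC than in YC (-3.67 ± 0.38, adjusted p = 1.16e-05). Fosl2 and Junb were the members called in all 3 comparisons with no overlap of libraries in any of them. Fosl1, which encodes FRA-1, had 1 count over the 3 pBIC10 libraries, 2 over the pBIC libraries and 6 over the YC libraries, so no fold is given.

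The Jun family, which supplies the partners of the Fos and Batf proteins, was lower in both lymphomas than in normal germinal centre cells. Jun stood at 79.0, 36.5 and 45.2 CPM in pBIC10, against 228, 47.3 and 215 CPM in pBIC and 971, 2034, 276 and 760.3 CPM in YC. All lymphoma libraries lay below all YC libraries, and pBIC10 overlapped pBIC. Jun was lower in pBIC10 than in YC (-4.24 ± 0.73, adjusted p = 5.52e-04) and lower in pBIC than in YC (-2.63 ± 0.67, adjusted p = 0.00639). The latter call was lost without the filter (adjusted p = 0.0536, range 3.65e-04 to 0.0536). Between the lymphomas Jun differed by -1.61 ± 0.67 (adjusted p = 0.0915) and was not called, while Fos was called with the opposite sign.

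Junb, a partner of BATF in lymphocytes, stood at 485, 574 and 498 CPM in pBIC10, against 215, 168 and 284 CPM in pBIC and 1154, 1843, 803 and 1133 CPM in YC. The 3 groups did not overlap, in the order YC, pBIC10, pBIC. Junb was lower than in YC by 1.25 ± 0.26 log2 units in pBIC10 (fold change -1.25, adjusted p = 0.00139) and by 2.47 ± 0.27 in pBIC (fold change -2.47, adjusted p = 1.53e-05). It was higher in pBIC10 than in pBIC (1.22 ± 0.27, adjusted p = 0.00436). Its exons overlap those of Prdx2 on the opposite strand in GENCODE M21. The strand setting of the counting is not given, and Prdx2 had 848 to 3559 counts per library, so reads of the pair could have been shared.

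Jund, the Jun gene that is expressed steadily rather than induced, stood at 437, 444 and 407 CPM in pBIC10, against 238, 209.6 and 395 CPM in pBIC and 1477, 2682, 1136 and 1716 CPM in YC. Again no group overlapped another, but pBIC replicate 3 (395 CPM) came close to the lowest pBIC10 library (407 CPM). Jund was lower than in YC in pBIC10 (-2.03 ± 0.29, adjusted p = 1.26e-04) and in pBIC (-2.64 ± 0.30, adjusted p = 2.41e-05). The lymphomas differed by 0.61 ± 0.30 (adjusted p = 0.137), and without pBIC replicate 3 this was called (0.94, adjusted p = 0.0300, range 0.0300 to 0.393). Exons of Jun and Jund also meet genes on the opposite strand, namely Junos (4 to 67 counts per library) and Gm11175.

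Batf went the other way from Fosl2. It stood at 8.38, 6.09 and 6.66 CPM in pBIC10, against 81.1, 148 and 48.6 CPM in pBIC and 45.2, 70.3, 45.5 and 46.2 CPM in YC. All pBIC10 libraries lay below all others, and pBIC overlapped YC. Batf was 13.1-fold lower in pBIC10 than in pBIC (-3.71 ± 0.37, adjusted p = 2.02e-05) and also lower in pBIC10 than in YC (-2.88 ± 0.35, adjusted p = 3.74e-05). The rise in pBIC against YC (0.83 ± 0.31, adjusted p = 0.0359) was lost in 9 of 22 alternatives. Without pBIC replicate 2 it was 0.38 (adjusted p = 0.217, range 0.00272 to 0.217). It was also lost without YC replicate 1 (0.74, adjusted p = 0.0924), 3 (0.77, adjusted p = 0.0854) or 4 (0.77, adjusted p = 0.0877).

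Batf3, known for its role in dendritic cells that cross-present antigen, was at the low end of what was tested. Its counts were 18, 10 and 8 in pBIC10, 30, 74 and 21 in pBIC and 20, 1, 8 and 18 in YC. Levels were 0.410 to 1.06 CPM in pBIC10, 1.12 to 4.18 CPM in pBIC and 0.0819 to 1.48 CPM in YC, where replicate 2 lay under the level that a count of 0 allows. The lymphoma groups did not overlap, but the difference was not called (-1.74 ± 0.75, adjusted p = 0.0932). It was called with no filter on low counts (adjusted p = 0.0479, range 0.0479 to 0.373). Against YC the differences were 1.41 ± 0.68 in pBIC (adjusted p = 0.0950) and -0.33 ± 0.73 in pBIC10 (adjusted p = 0.728). With no filter the former was called too (1.46, adjusted p = 0.0451, range 0.0451 to 0.435).

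Atf3, a stress-induced factor that can pair with Jun proteins, stood at 57.7, 49.8 and 7.74 CPM in pBIC10, against 10.1, 2.43 and 18.3 CPM in pBIC and 12.2, 54.8, 30.8 and 52.5 CPM in YC. The groups overlapped in all 3 comparisons and none was called. The third pBIC10 library, from the male of that group, was low and the first 2, from females, were high. In female libraries alone Atf3 was called higher in pBIC10 than in pBIC (2.39, adjusted p = 0.0357, range 0.0357 to 0.320), against 1.90 ± 0.79 (adjusted p = 0.0914) with all libraries. No other alternative gave a call there, and these include sex as a covariate and that male library left out. All pBIC libraries, at 2.43 to 18.3 CPM, came from females. In YC the male library stood at 30.8 CPM, and the lowest, at 12.2 CPM, came from a female. In pBIC against YC it differed by -1.87 ± 0.76 (adjusted p = 0.0571) and was called in 9 of 22 alternatives (range 0.0229 to 0.216), which include DESeq2 (-1.92, adjusted p = 0.0475). In pBIC10 against YC the difference was 0.032 ± 0.71 (adjusted p = 0.975).

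**Figure D2:**
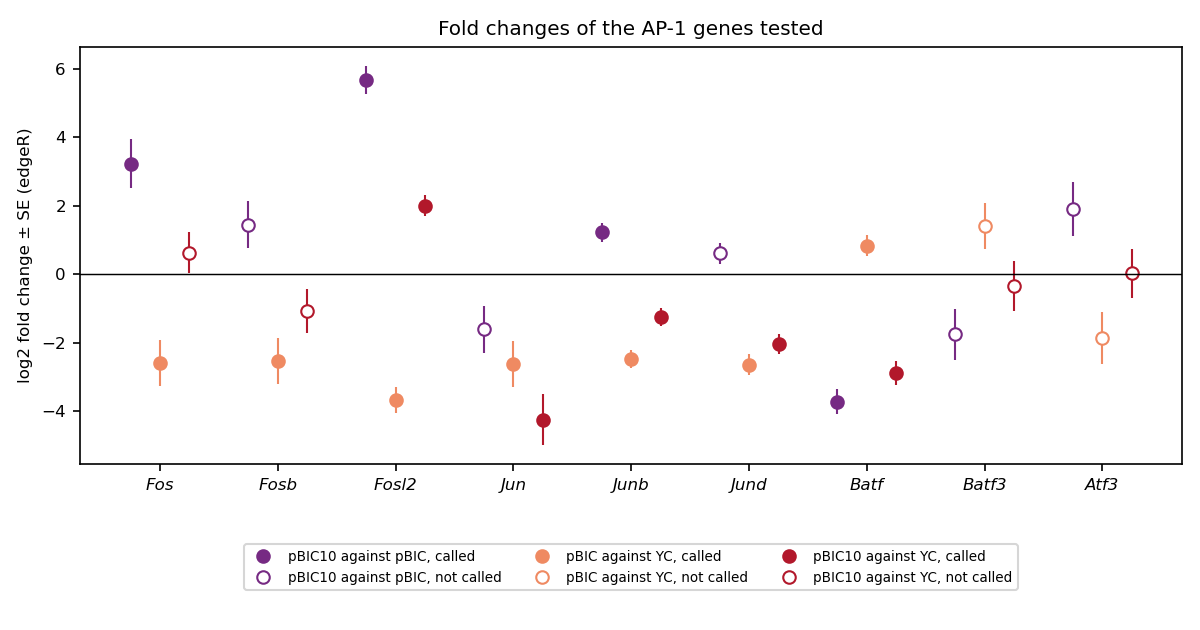
Log2 fold change ± SE from edgeR for the 9 tested AP-1 genes in 3 comparisons. Filled points were called at an adjusted p under 0.05 and open points were not. Fosl2 and Batf lie on opposite sides of 0 in pBIC against YC (-3.67 and 0.83) and in pBIC10 against YC (2.0 and -2.88).

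Libraries of the groups did not overlap for 6 of 9 members in pBIC10 against pBIC (41.8% of all genes), 6 of 9 in pBIC against YC (54.2%) and 5 of 9 in pBIC10 against YC (61.0%). The last share is below the background.

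To compare members with each other, CPM were divided by the joint length of all exons of each gene in GENCODE M21 (GRCm38). The submitters' notes name GRCm39, and which transcripts of a gene were made was not read. These levels are therefore not counts of molecules. On this per-length scale, levels in YC led with Jund at 1051 ± 398 CPM per kb (SD, n = 4), followed by Junb at 536 ± 190, Fos at 411 ± 281 and Jun at 317 ± 233. Neighbours among Junb, Fos and Jun lay within 1 SD of each other. In pBIC10 the leading gene was Fos at 639 ± 287 CPM per kb (SD, n = 3), ahead of Jund at 257 ± 12.0 and Junb at 226 ± 21.0. In pBIC the order was Jund at 168 ± 59.8 CPM per kb (SD, n = 3), Junb at 96.5 ± 25.4, Fos at 68.0 ± 44.2 and Batf at 65.7 ± 35.9. There the last 3 overlapped within their spread. Fosl2 averaged 10.2 ± 0.950 CPM per kb in pBIC10, so despite its 50.8-fold difference it stood far below Fos and Fosb (104 ± 50.3 CPM per kb) within that group.

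The make-up of the summed AP-1 messages also differed between groups. The Fos family held 66.6, 59.3 and 44.8% of the summed per-length level of all 10 members in pBIC10, 28.5, 6.68 and 23.9% in pBIC and 24.2, 26.6, 20.8 and 22.8% in YC. All pBIC10 libraries lay above all others, and pBIC and YC overlapped. The Jun family held 31.3 to 54.2% in pBIC10, 59.3 to 69.1% in pBIC and 71.6 to 76.0% in YC, with no overlap between groups. Per length, the ratio of Fos family to Jun family levels was 2.12 and 1.54 in the first 2 pBIC10 libraries. In the third it was 0.827. In pBIC that ratio was 0.108 to 0.480 and in YC 0.274 to 0.372. The Batf family held 11.3, 31.2 and 5.70% of the pool in pBIC, 0.344 to 0.571% in pBIC10 and 1.18 to 2.23% in YC. The summed pool itself was 875 to 1588 CPM per kb in pBIC10, 345 to 619 in pBIC and 1470 to 4255 in YC, so the larger Batf share in pBIC stands over a smaller pool. Shares of 1 pool depend on each other, and no test was made of them.

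**Figure D3:**
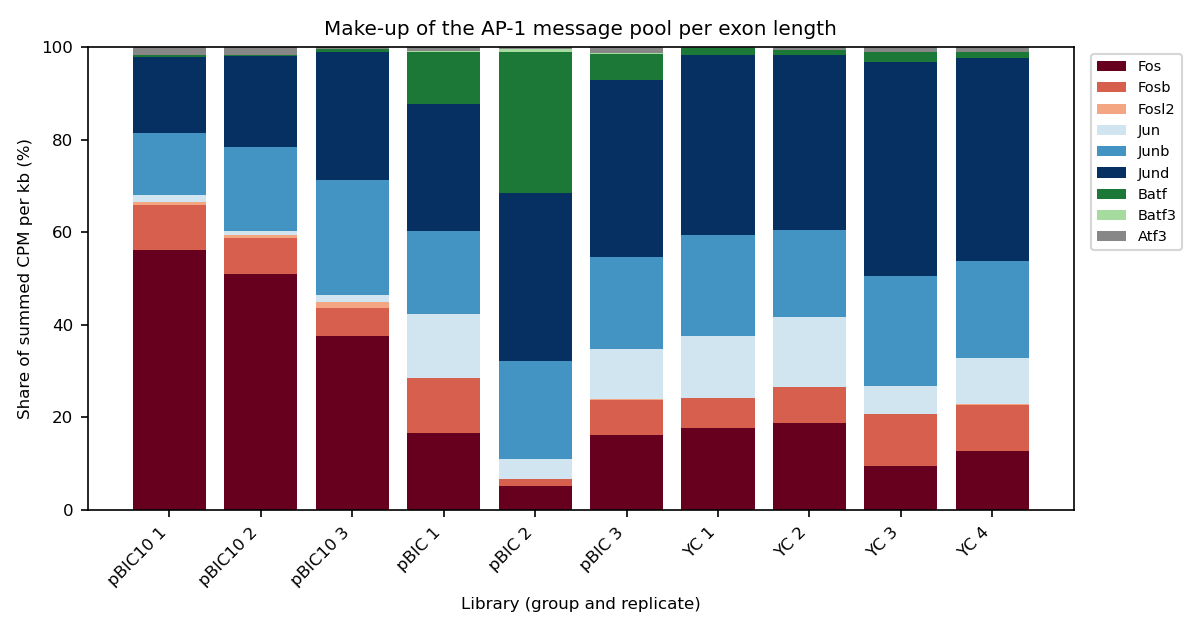
Share (%) of each AP-1 gene in the summed CPM per kb of exon length, 1 bar for each library. Fosl1, at 0.00806% or less, is too small to be drawn. Reds (Fos family) take 44.8 to 66.6% of the pBIC10 bars and 6.68 to 28.5% of the pBIC bars, and green (Batf) is widest in pBIC replicate 2, at 30.4%.

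Fos and Batf, which changed in opposite directions between the lymphomas, are close neighbours on chromosome 12 in RefSeq's GRCm38.p6 annotation, with Jdp2 as the only protein-coding gene between them. Jdp2 encodes a bZIP protein that pairs with Jun proteins and represses AP-1. It stood at 10.5, 4.04 and 3.54 CPM in pBIC10, against 18.01, 30.7 and 15.2 CPM in pBIC and 9.42, 12.4, 7.22 and 8.70 CPM in YC. Like Batf it was lower in pBIC10 than in pBIC (-1.82 ± 0.42, adjusted p = 0.00531) and higher in pBIC than in YC (1.18 ± 0.38, adjusted p = 0.0179). In pBIC10 against YC, where Batf was lower, Jdp2 was not called (-0.65 ± 0.39, adjusted p = 0.183) and its libraries overlapped. On chromosome 1, Batf3 and Atf3 have 1 protein-coding gene between them.

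Promoter sequences of 9 members (all but Fosl1) were matched by symbol in RefSeq (GRCm38.p6), and the 250 bases before each start were searched on both strands. The motif TGACG is the core of the cAMP response element, which CREB and ATF proteins bind, and is itself part of the full element TGACGTCA. It was found in 5 of 9 members (Fos, Fosb, Junb, Batf and Atf3) and in 17.8% of 32841 promoter windows. The windows below show it for Fos and its neighbour Batf, for Fosb and Junb, and for Atf3, where it lies on the other strand as CGTCA. The last line shows the promoter of Jun, with the related motif TGANNTCA that AP-1 and ATF dimers bind in that gene. Capitals mark the motif, and each sequence runs 5′ to 3′ along its gene.
Fos, chr12:85473806-85473846, plus strand: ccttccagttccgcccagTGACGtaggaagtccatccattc
Batf, chr12:85686604-85686644, plus strand: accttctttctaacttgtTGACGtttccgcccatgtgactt
Fosb, chr7:19310083-19310123, minus strand: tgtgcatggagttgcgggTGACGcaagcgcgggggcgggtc
Junb, chr8:84978832-84978872, minus strand: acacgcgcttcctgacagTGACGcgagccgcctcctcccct
Atf3, chr1:191183334-191183358, minus strand: aagctattaatagcattaCGTCAgc
Jun, chr4:95052242-95052285, minus strand: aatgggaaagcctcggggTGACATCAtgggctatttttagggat
The motif starts 66 bases before the start site in Fos, 98 in Batf, 60 in Fosb, 106 in Junb, 7 in Atf3 and 45 in Jun. A second TGACG lies 129 bases before the start of Fos. TGANNTCA was found in 2 of 9 members (Jun and Jund) and in 11.9% of all windows. The AP-1 site TGANTCA (6.75% of all windows), the full element TGACGTCA (1.55%) and the CArG box of serum response factor (1.47%) were found in 0 of 9 windows. Sites more than 250 bases before a start were not searched, so this 0 does not show that a gene lacks them. Both Fos, which was higher in pBIC10, and Batf, which was lower, carry TGACG in these windows, and Fosl2 carries none of the motifs in its window. A match is a description of letters and does not show that a factor binds there.

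Within groups the immediate early members Fos, Fosb, Jun and Atf3 varied widely. The highest library exceeded the lowest by 5.67-fold for Fos, 11.8-fold for Fosb, 4.82-fold for Jun and 7.51-fold for Atf3 in pBIC, where the median over 11829 genes with a mean of at least 5 CPM was 1.62-fold. In YC the ratio was 7.36-fold for Jun and 5.70-fold for Fos (median of all genes 1.35-fold), and in pBIC10 7.45-fold for Atf3, 2.90-fold for Fosb and 2.72-fold for Fos (median 1.29-fold). Fosl2, Junb and Jund varied by 1.20-, 1.19- and 1.09-fold in pBIC10, but by 2.56-, 2.30- and 2.36-fold in YC. In pBIC these 3 varied by 2.28-, 1.69- and 1.88-fold. Junb is also an immediate early gene. Batf varied by 3.03-fold in pBIC, 1.37-fold in pBIC10 and 1.56-fold in YC. The library pBIC replicate 2 was lowest in its group for 7 of 9 members and highest for the other 2, Batf and Batf3. In YC, replicate 2 was highest for 7 of 9. Such counts were not made over all genes, so they have no background here or in the next paragraph. Without pBIC replicate 2, Fos was still called higher in pBIC10 than in pBIC (2.74, adjusted p = 0.0270, range over alternatives 7.65e-05 to 0.0487).

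Many, but not all, other immediate early and stress genes moved with these libraries. Of 16 such genes, 11 were lowest in pBIC replicate 2 within pBIC. The heat shock genes Hspa1a, Hspa1b and Dnajb1 were instead highest there. Within YC, 11 of 16 were highest in replicate 2, and these 3 were highest in other libraries. The summed level of the 16 was 631 CPM in pBIC replicate 2 and 1380 and 1352 CPM in the other pBIC libraries. It was 1395 to 1844 CPM in pBIC10 and 3459 to 7433 CPM in YC. Against YC, 16 of 16 were lower in pBIC (27.7% of all genes were) and 13 of 16 in pBIC10 (26.9% of all genes). Between the lymphomas, 3 of 16 (18.8%) were higher in pBIC10 and 0 lower, with a median of 0.18, and 15.6% of all genes were higher. The 3 were Ier2 (1.20 ± 0.28, adjusted p = 0.00637), Klf4 (2.94 ± 0.76, adjusted p = 0.0126) and Nr4a1 (2.06 ± 0.63, adjusted p = 0.0274). The count was 1 without pBIC10 replicate 1 or 2, without pBIC replicate 3 or with no filter. Egr1, a zinc finger factor often induced with Fos, was not called (1.44 ± 0.72, adjusted p = 0.153). Its libraries did not overlap, at 232 to 406 CPM in pBIC10 and 18.5 to 218 CPM in pBIC, as for 41.8% of all genes. Hspa1a and Hspa1b were far lower in pBIC10 than in YC (-7.10 ± 0.88 and -6.44 ± 0.83, adjusted p of at most 7.84e-05). They were also far lower in pBIC than in YC (-5.66 ± 0.79 and -4.87 ± 0.76, adjusted p of at most 2.79e-04). Between the lymphomas neither was called (adjusted p = 0.25 and 0.133). The part of such library-wide shifts in the AP-1 results was not tested.

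**Figure D4:**
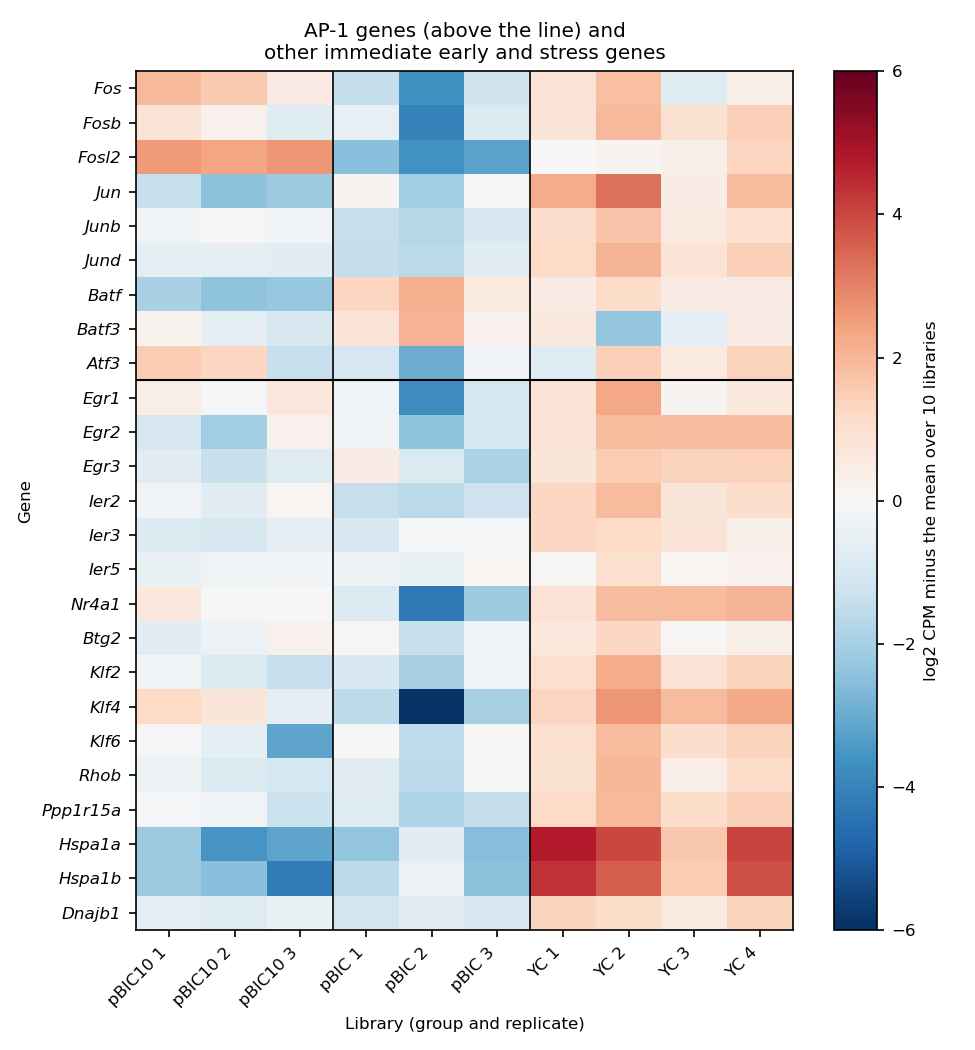
Log2 CPM minus the mean over 10 libraries, for 9 AP-1 genes above the line and 16 other immediate early and stress genes below it. Columns are libraries by group. The column of pBIC replicate 2 is blue (low) for Fos, Fosb, Egr1 and Nr4a1 and red (high) for Batf, and Fosl2 is reddest in the 3 pBIC10 columns (2.38 to 2.65 above its mean) and paler in YC replicate 4 (1.31).

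Of 17 MAP kinase route genes, 3 were higher and 4 lower in pBIC10 than in pBIC (41.2% called, against 30.7% of all genes, with a median of -0.23). Rps6ka3, which encodes the kinase RSK2, was higher (1.35 ± 0.26, adjusted p = 0.00193), as was Mapk14, which encodes p38α (0.77 ± 0.17, adjusted p = 0.00340). Mapk9, which encodes the Jun kinase JNK2, was lower (-0.83 ± 0.17, adjusted p = 0.00230). The total of 7 was 4 without pBIC10 replicate 2, in female libraries or in the fit of 2 groups. Against YC, 3 were higher and 4 lower in pBIC (41.2%, below the 54.1% of all genes), and 5 higher and 6 lower in pBIC10 (64.7%, against 51.7%). Mapk8, which encodes JNK1, was higher in pBIC and in pBIC10 than in YC (0.86 ± 0.17 and 0.85 ± 0.17), and Map2k1, which encodes MEK1, was lower (-0.98 ± 0.14 and -1.33 ± 0.14), with adjusted p of 8.84e-04 or less in these tests.

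Of 9 transcription factors that induce Fos and Jun, 2 were higher and 1 lower in pBIC10 than in pBIC (median 0.43), a called share of 33.3% that is near the 30.7% of all genes. Srf, which encodes serum response factor, and Mef2d were higher (0.89 ± 0.21, adjusted p = 0.00572, and 1.57 ± 0.23, adjusted p = 2.44e-04). Stat3, which encodes a signal transducer of IL-10 and IL-6 receptors, was lower (-1.26 ± 0.19, adjusted p = 3.44e-04). Without pBIC replicate 1 the count was 5 higher and 1 lower. In pBIC against YC 0 were higher and 4 lower (44.4%). Of all genes 27.7% were lower there, and 54.1% were called in either direction. Srf was among the 4 (-1.06 ± 0.20, adjusted p = 6.49e-04). In pBIC10 against YC 2 were higher and 3 lower, or 1 and 2 without pBIC10 replicate 2 (55.6% with all libraries, against 51.7%).

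Feedback genes limit MAP kinases or help degrade AP-1 messages. Of 14, 7 were higher and 2 lower in pBIC10 than in pBIC (64.3% called, against 30.7% of all genes, with a median of 1.53). Zfp36l2, which encodes a protein that destabilises AU-rich messages, was higher (3.53 ± 0.29, adjusted p = 3.87e-06), and so were the MAP kinase phosphatase genes Dusp2 (2.93 ± 0.33, adjusted p = 4.66e-05) and Dusp5 (3.18 ± 0.46, adjusted p = 3.76e-04). Dusp10, a phosphatase gene for p38 and JNK, was lower (-1.41 ± 0.32, adjusted p = 0.00522). In pBIC against YC 12 of 14 were lower and 0 higher (85.7%, against 54.1%), and in pBIC10 against YC 7 were lower and 1 higher (57.1%, against 51.7%). That last total of 8 was 5 without pBIC10 replicate 2. Zfp36l2 was the one higher (1.79 ± 0.25, adjusted p = 7.50e-05).

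Among 13 tested genes of other bZIP partners and competitors, 3 were higher and 2 lower in pBIC10 than in pBIC (38.5% called, against 30.7% of all genes). Bach2, a repressor that competes for AP-1 sites in B cells, stood at 67.8, 82.1 and 97.4 CPM in pBIC10, against 21.9, 6.84 and 8.35 CPM in pBIC and 261, 237, 263 and 228 CPM in YC. The groups did not overlap, and Bach2 was higher in pBIC10 than in pBIC (2.74 ± 0.36, adjusted p = 1.63e-04) and lower in pBIC than in YC (-4.32 ± 0.38, adjusted p = 4.33e-06). In pBIC against YC 3 were higher and 6 lower (69.2%, against 54.1%), and in pBIC10 against YC 2 and 6 (61.5%, against 51.7%).

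Of 6 partners and targets of BATF, 4 were lower in pBIC10 than in pBIC and 0 higher (66.7% called, against 30.7% of all genes, with a median of -1.45). Prdm1 and Il10 are among them and are themselves deleted by the alleles, Prdm1 in both lymphomas and Il10 in pBIC10. Irf8, which encodes a DNA-binding partner of BATF, stood at 309, 296 and 192 CPM in pBIC10, against 363, 988 and 726 CPM in pBIC and 721, 778, 697 and 607 CPM in YC. It was lower in pBIC10 than in pBIC (-1.38 ± 0.30, adjusted p = 0.00428) and than in YC (-1.40 ± 0.29, adjusted p = 0.00146). Irf4, the other partner, was lower in pBIC than in YC (-1.07 ± 0.30, adjusted p = 0.00910), with overlapping libraries. Against YC, 4 of 6 were lower in pBIC (27.7% of all genes were) and 6 of 6 in pBIC10 (26.9% of all genes).

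Of 16 classical AP-1 targets, 12 could be tested, and they did not move one way. In pBIC10 against pBIC 3 were higher and 4 lower (58.3% called, against 30.7% of all genes, with a median of -0.20). Ccnd1, which encodes the G1 cyclin D1, stood at 134, 142 and 136 CPM in pBIC10, against 71.4, 36.9 and 32.9 CPM in pBIC and 8.53, 4.01, 2.55 and 5.28 CPM in YC. It was higher in pBIC10 than in pBIC (1.54 ± 0.37, adjusted p = 0.00738), in pBIC than in YC (3.21 ± 0.36, adjusted p = 2.70e-05) and in pBIC10 than in YC (4.75 ± 0.38, adjusted p = 2.38e-06). Vim, which encodes vimentin, was higher in pBIC10 than in pBIC (1.35 ± 0.32, adjusted p = 0.00733). Plau, which encodes urokinase, and Tnf were lower (-2.98 ± 0.66, adjusted p = 0.00497, and -2.15 ± 0.48, adjusted p = 0.00601). Against YC the counts were 3 higher and 6 lower in pBIC (75.0%, against 54.1%) and 2 higher and 4 lower in pBIC10 (6 of 12 called, near the 51.7% of all genes).

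Genes with the pattern most like that of a member were found by the root mean square difference of log2 CPM, each gene centred on its mean, over all 10 libraries and 10088 genes. Nearest to Fos were Tsc22d3, which encodes the glucocorticoid-induced leucine zipper protein (0.52 log2 units), Fkbp11 (0.56) and Zfp52 (0.59). Tsc22d3 stood at 263 to 377 CPM in pBIC10, 14.02 to 38.7 CPM in pBIC and 164 to 307 CPM in YC. Nearest to Junb were Rhof (0.26), the immediate early gene Ier2 (0.27) and Zfp61 (0.29). Nearest to Batf were Kynu, which encodes kynureninase (0.37), Ncf1, which encodes a subunit of the phagocyte NADPH oxidase (0.37), and Creld2 (0.42). Ncf1 stood at 13.1 to 21.0 CPM in pBIC10, 175 to 415 CPM in pBIC and 143 to 181 CPM in YC.

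Some members are also expressed by cells other than B cells, so markers of such cells were read beside them. The 10 T cell markers, of cells that also express Batf, summed to 41.3 to 65.1 CPM in pBIC10, 49.9 to 87.7 CPM in pBIC and 306 to 501 CPM in YC. Of these, 9 of 10 were lower in pBIC10 than in pBIC (15.1% of all genes were), as Batf was, and 1 (Lck) was higher. Lck held most of the sum in pBIC10, at 36.5 to 57.7 CPM. The other 9, summed apart after these values were seen, came to 3.69 to 7.38 CPM in pBIC10, 40.2 to 80.1 CPM in pBIC and 109 to 332 CPM in YC, with no overlap between groups. Cd8b1 was the largest of the 9 in each pBIC library, at 15.3 to 44.9 CPM. It stood at 0.703 to 3.64 CPM in pBIC10 and 10.3 to 39.2 CPM in YC. Both Batf and Cd8b1 overlapped between pBIC and YC. In that comparison 9 of the 10 T cell markers were lower (27.7% of all genes were), and only Cd8b1 was not called. Within pBIC, Cd8b1 stood at 20.3, 15.3 and 44.9 CPM in replicates 1, 2 and 3, and Batf at 81.1, 148 and 48.6 CPM. The 6 markers of cross-presenting dendritic cells summed to 12.1 to 30.5 CPM, 12.2 to 17.8 CPM and 59.7 to 66.7 CPM. Between the lymphomas 0 of 6 was called, where 30.7% of all genes were. Flt3 held most of the sum in pBIC10 (8.90 to 24.3 CPM) and in YC (45.2 to 52.1 CPM), and stood at 2.09 to 8.87 CPM in pBIC. The 8 monocyte and macrophage markers summed to 23.9 to 29.5 CPM in pBIC10, 125 to 152 CPM in pBIC and 112 to 171 CPM in YC. Of them 3 of 8 were lower in pBIC10 than in pBIC (15.1% of all genes were), as Batf was. Of the 8, Fcgr1 was at 0 in the 3 pBIC10 libraries, and Cd68 held most of the sum in pBIC with 100 to 117 CPM. The 5 erythroid markers summed to 394 to 1021 CPM in pBIC10, 18.2 to 414 CPM in pBIC and 108 to 339 CPM in YC. Their part in the AP-1 results was not tested.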

How the data were processed

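Poly(A) RNA was sequenced from one end for 50 nt, per the labels. The deposited values are raw counts of reads for each gene, for which the submitters' processing notes list featureCounts and GRCm39. Not given in the sources used here are the aligner, annotation, strand setting and versions. All columns matched a sample, with 0 left over. Genes were filtered by filterByExpr and scaled with TMM factors, and all 10 libraries entered 1 fit in edgeR 4.0.16 (quasi-likelihood, robust, 1 coefficient per group, R 4.3.3), a procedure also tested on simulated data. The SE is the fold change divided by the square root of F. Alternatives were other scalings, filters and thresholds, DESeq2 1.42.0, limma-voom (limma 3.58.1), 2-group fits, sex as a covariate, female libraries alone, antigen receptor genes left out and each library left out in turn. The members and the 7 pathway and 11 marker lists were chosen with earlier results of these data known. From pathway lists, up to 3 called genes per direction with the smallest adjusted p could be named, and the text gives a part. Egr1 and neighbours in the genome were read by name. Nearest genes used log2 CPM (prior count 2) at a mean of at least 5 CPM. Counting error alone sets the level allowed by a count of 0. Figures were drawn with matplotlib 3.10.9.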

Additional observations from a re-analysis of the deposited data

Results flagged for a closer look

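In YC, Batf in replicate 2 (70.3 CPM) stood apart from the other 3 libraries (45.2 to 46.2 CPM). The gap took up 0.961 of the range of the group. Chance marks about 1 in 20 groups in this way, and 9 members were checked in YC.

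Fosl2 and Batf were called in opposite directions against YC in the lymphomas, and the direct test of the lymphomas against each other was called for both. Fosl2 differed by 5.67 and Batf by -3.71 on the log2 scale in pBIC10 against pBIC. The call of Batf in pBIC against YC was lost in 9 of 22 alternatives.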

How the results depend on the processing

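No paired analysis was possible because the labels carry mouse numbers that no groups share. Over 22 alternatives (12 settings and 10 fits that each left out 1 library), called members numbered 4 to 5 in pBIC10 against pBIC, 5 to 8 in pBIC against YC and 5 to 6 in pBIC10 against YC, against 4, 7 and 5. Of 594 member values under an alternative, 556 kept direction and call, 12 lost the call, 15 gained one and 11 changed sign. Sign changes were in 2 members not called in pBIC10 against YC. Atf3 (0.032) became -0.0087 with RLE scaling, -0.0082 with DESeq2, -0.22 with limma-voom, -0.010 with a filter of 1 CPM in 3 libraries and -0.20 with sex as a covariate, and ranged from -0.38 to 0.53 with 1 library left out. Batf3 (-0.33) became 0.049 with limma-voom and ranged from -0.78 to 0.041 with 1 library left out. The cause was not tested. At an adjusted p under 0.01, 3145 genes were called in pBIC10 against pBIC in place of 5440, by construction. Of 392 counts over pathway lists, 16 moved by more than 1.5 times. Depth limits Batf3 and Fosl1, which had at most 74 and 3 counts in a library.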
